A study of Mus musculus with 6 samples.

Results

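Zfp genes of the mouse, the genes whose symbol is Zfp followed by a number alone and that code for protein, were compared in the middle small intestinal mucosa of alk-SMase knockout (KO) and wild type (WT) mice. The GENCODE M21 annotation of mm10 (GRCm38) holds 365 such genes, the deposited table lists 319 of them, and 72 could be placed on their own values and form the members described here. The members are 72 of the 22700 rows of the table and of the 10042 genes placed in the same way. Both genotypes were of the C57BL/6 strain, with RNA of 3 mice each sequenced as 1 library per mouse. Values are given in the order K79S, K82S, K86S for KO mice and in the order W83S, W89S, W90S for WT mice. The mice were taken as 3 KO and WT pairs, but which KO mouse belongs with which WT mouse is not given in the sources used here. In the KO mice exon 2 of Enpp7, the gene of alkaline sphingomyelinase (alk-SMase), had been deleted with the Cre-loxP system, and the line that carried Cre, the age and the sex are not given in the sources used here. The comparison asks how the intestinal transcriptome differs when this sphingomyelin-hydrolysing enzyme of the gut is lost.

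The identifiers of the table stood beside the values of other genes, so each member was placed by rank. The K79S values ordered the identifiers and the W83S values ordered the rows. Identifiers of a first block of ranks kept their rank, those of a second block moved up by 1, and all others were left out. The K79S values used stood on the rows of other genes, so members were selected on their own values in W83S and not in K79S. A gene could become a member only where W83S held at least 2.02 FPKM, and 247 listed Zfp genes ranked below this limit. FPKM are read fragments corrected for transcript length and for the mapped reads of a library. Values with at most 6 decimals, the mark of genes with a single transcript, were found for 9 of 9 members with a single annotated transcript and for 2 of 63 members with several.

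Most Zfp genes code for proteins with fingers of the C2H2 kind, in which a pair of cysteines and a pair of histidines hold a zinc ion and rows of fingers read DNA. Many of them also carry a KRAB domain, which recruits the corepressor Trim28 and the histone methyltransferase Setdb1, and this group is known for silencing retroelements and guarding imprinted genes. The symbol names the finger and not the role. Zfp36 (tristetraprolin) uses fingers of the CCCH kind to bring messenger RNAs to decay, Zfp598 is a ubiquitin ligase at collided ribosomes, and Zfp207 acts at the mitotic spindle, so the members are not all transcription factors.

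Enpp7, the deleted gene, held 605, 129 and 669.7 FPKM in KO mice, and 406, 667 and 495 FPKM in WT mice. Whole-gene FPKM cannot reveal a missing exon 2, and the genotype labels therefore went unchecked by this gene. The authors report that each mouse was typed by PCR and by its alk-SMase activity in feces. The 12 enterocyte markers summed to between 25569 and 42611 FPKM in the 6 libraries, with the lowest sum in K82S. The 7 placed gastric markers summed to 38547 FPKM in W83S and to at most 5.46 FPKM in the other libraries. The files hold no read counts, so the counting error behind a single FPKM value is unknown.

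The sequences before the starts of 3 members are shown because Zfp36 was the only member whose KO values all lay above its WT values, and because Zfp692 and Zfp771 had, with Zfp422, the lowest limma p-values among those whose KO values all lay below. Each line gives the 250 bases before the RefSeq start on GRCm38.p6, at chr7:28379229-28379478 on the minus strand for Zfp36, chr7:127244276-127244525 on the plus strand for Zfp771 and chr11:58306819-58307068 on the plus strand for Zfp692. By the GENCODE M21 gene bounds the Zfp36 and Zfp771 windows lie inside their genes, and the Zfp692 window ends just before its gene. Capitals mark the ETS motif, spelled CCGGAAG, and the box read by Sp and Klf factors, spelled GGGCGG. They also mark an AT-rich run near some starts, spelled ATAAAA. Each was searched on both strands, and a match that overlaps a marked motif was not marked. This was so for a further CCGCCC at the end of the Zfp771 window, which shares a base with the last marked box. None of these letters are in the Zfp692 window, which says nothing about the factors.
Zfp36: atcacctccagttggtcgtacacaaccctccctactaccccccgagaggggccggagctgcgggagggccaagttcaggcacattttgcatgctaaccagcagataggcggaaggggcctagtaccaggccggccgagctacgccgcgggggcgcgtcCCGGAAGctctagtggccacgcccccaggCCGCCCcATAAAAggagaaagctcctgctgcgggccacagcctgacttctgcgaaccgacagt
Zfp771: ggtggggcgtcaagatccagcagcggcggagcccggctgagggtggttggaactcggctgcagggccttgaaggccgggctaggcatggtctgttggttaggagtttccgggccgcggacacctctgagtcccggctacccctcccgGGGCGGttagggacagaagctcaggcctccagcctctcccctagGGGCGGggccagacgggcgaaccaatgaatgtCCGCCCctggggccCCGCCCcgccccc
Zfp692: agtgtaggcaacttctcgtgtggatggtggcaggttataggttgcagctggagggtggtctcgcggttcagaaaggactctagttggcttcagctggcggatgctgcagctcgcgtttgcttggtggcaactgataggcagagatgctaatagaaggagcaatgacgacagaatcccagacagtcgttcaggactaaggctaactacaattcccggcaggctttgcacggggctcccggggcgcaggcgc
RefSeq gave such a window for 59 of the 72 members, 73 windows in all. GGGCGG was found in 50.7% of the 73 member windows and in 32.7% of all 32851 windows, and CCGGAAG in 16.4% and 6.91%. ATAAAA was in 11.0% of member windows and 17.0% of all windows. The member windows held a median of 17 CG pairs against 6 over all windows. The windows over all were not limited to protein-coding genes or to genes above an expression limit, as the members were. The same values over the placed genes were not taken, so these differences are not shown to belong to Zfp genes. A match is a stretch of letters and not a bound site.

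Listed Zfp genes that ranked below the W83S limit of the placing were left out. The lower edge of expression among the members therefore follows in part from this rule. Most members had low to moderate expression. Their mean over the 6 libraries had a median of 3.46 FPKM and ran from 1.37 FPKM for Zfp523, the relative of Zfp143, to 71.7 FPKM for Zfp36. The mean was above 20 FPKM for 3 members (Zfp36, Zfp706 and Zfp703), between 10 and 20 FPKM for 4, between 5 and 10 FPKM for 14 and under 5 FPKM for 51. Zfp36 alone made up 19.8% of the summed FPKM of the members in the KO libraries and 14.1% in the WT libraries. The summed FPKM of all members was 453, 421 and 434 in KO mice and 395, 411 and 406 in WT mice. The KO sums all lay above the WT sums. Without Zfp36 the unscaled sums overlapped, at 338 to 368 FPKM in KO mice and 339 to 357 FPKM in WT mice. As a share of the summed FPKM of each library, all members made up 0.115%, 0.0903% and 0.103% in KO mice. In WT mice these shares were 0.0817%, 0.0829% and 0.0857%. The totals of the libraries differed and were lower in KO mice, and shares without Zfp36 were not taken. The overlap of the unscaled sums therefore cannot show that Zfp36 alone set the KO sums apart.

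**Figure D1:**
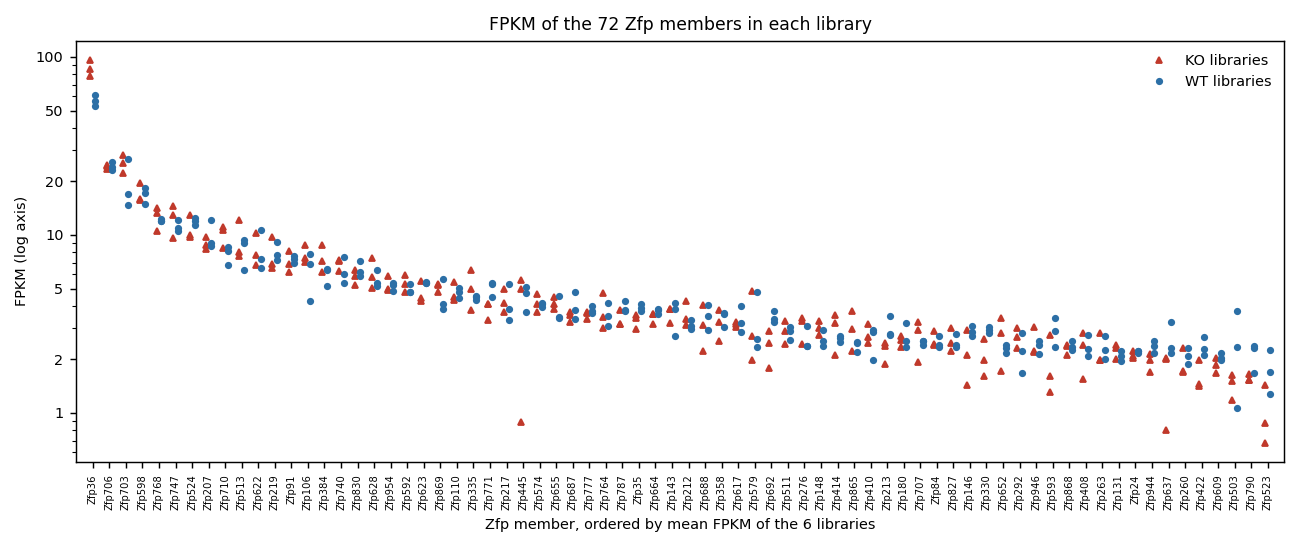
FPKM (vertical log axis) of each of the 72 Zfp members (horizontal axis, ordered by their mean) in the 3 KO libraries (triangles) and the 3 WT libraries (circles). Zfp36 stands highest with its KO values above its WT values, most other members lie close together in all 6 libraries, and single low points are seen for Zfp445 in K82S and Zfp637 in K79S.

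For most members the libraries differed little. The highest of the 6 values was on median 1.48 times the lowest, was under 1.5 times the lowest for 39 members, and exceeded 2 times the lowest for 9. Zfp706, a small protein with a single C2H2 finger, was among the steadiest, with 23.4, 24.5 and 24.7 FPKM in KO mice and 24.1, 25.5 and 23.1 FPKM in WT mice. Zfp598 held 17.1 ± 2.22 FPKM (KO) and 16.9 ± 1.73 FPKM (WT) with SD over 3 mice. The residual SD of log2(FPKM + 1) within genotypes had a median of 0.161 over the members, 0.241 over the placed genes tested and 0.244 over all rows tested. With a pseudocount of 0.01 in place of 1 these medians were 0.206, 0.278 and 0.313. The median mean expression was 3.46 FPKM over the members and 8.62 FPKM over the placed genes tested, and the part of this difference in level in the spread was not tested.

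Between KO and WT the members as a group did not stand apart in one direction. With limma on log2(FPKM + 1) over all 13089 rows that reached 1 FPKM in at least 2 libraries, all 72 members were tested and 0 passed an adjusted p of 0.05 with a fold change of 1.5, where 0.00764% of all rows did (1 row). At an unadjusted p under 0.05 there were 4 members of 72, where 12.5% of all rows and 14.3% of the placed genes tested had such a p (0.01% of the latter passed the threshold). The lowest adjusted p of a member was 0.393 (limma, Zfp36). The log2 fold changes of KO against WT on this scale ran from -0.48 to 0.59 over the members with a median of -0.0048, and 35 were above 0 and 37 below. Over all rows the median was -0.06 with 42.3% above 0. For 54 of 72 members (75.0%) the log2 fold change was within 0.2 of 0, against 46.7% of the placed genes tested, and with a pseudocount of 0.01 these shares were 65.3% and 41.7%. W83S, whose ranks placed the members, takes part in this comparison, so these counts are a description.

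The direction of the group depended on the scaling of the libraries. The summed FPKM of all genes was lower in the KO libraries (393152 to 465901) than in the WT libraries (473383 to 495362). The W83S sum of 483474 FPKM included 38547 FPKM of the 7 placed gastric markers. The part of these markers in the order of the sums was not tested. Scaling to the same sum moved the median of all rows by 0.14 on the log2 scale. It gave 56 members above 0 and 16 below, with 59.6% of all rows above 0. Scaling by the median ratio gave 47 above and 25 below, with 51.4% of all rows above 0. Counts by direction in the text are for the FPKM as deposited unless a scaling is named. Relative to the median of all rows, the median of the members was 0.06 higher with the FPKM as deposited and under both scalings. The share of log2 fold changes within 0.2 of 0 also moved with the scaling. It was 56.9% of the members and 40.0% of the placed genes tested when scaled to the same sum. By the median ratio these shares were 62.5% and 44.8%.

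**Figure D2:**
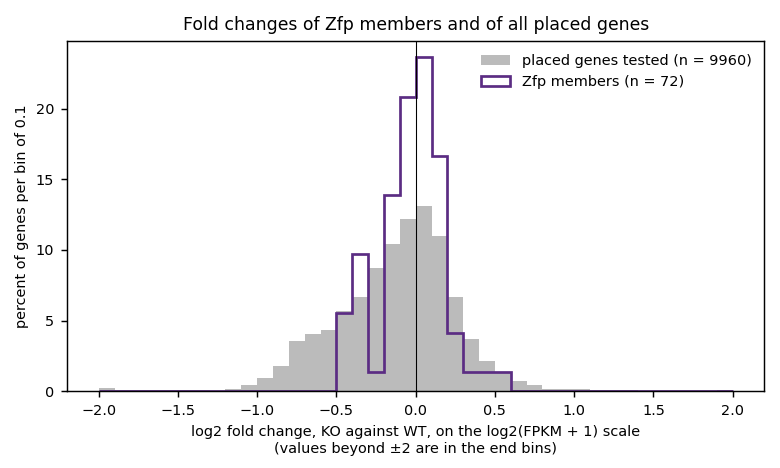
Share of genes (vertical axis, percent per bin of 0.1) by log2 fold change in KO relative to WT on the log2(FPKM + 1) scale (horizontal axis) for the 9960 placed genes tested (grey) and the 72 Zfp members (outline). With the FPKM as deposited, the members lie between -0.48 and 0.59, and 75.0% of them are within 0.2 of 0, against 46.7% of the placed genes.

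In the 4 libraries that the placing did not rank (K82S and K86S against W89S and W90S), 0 members passed, 0 members had an unadjusted p under 0.05 in limma and the lowest adjusted p of a member was 0.948. Here 0 of 12691 rows passed (0.0%), and 3.4% of the rows and 3.11% of the placed genes had an unadjusted p under 0.05. The median log2 fold change of the members was -0.04 with 32 above 0 and 40 below. All KO lay above all WT libraries for 6 members (11.4% of all rows, 10.7% of the placed genes) and below them for 20 (24.5% and 26.0%). K82S stood apart over the whole table, with an array weight in limma of 0.302 against 0.968 or more for the others. Without K82S 1184 of 12764 rows passed in limma (9.28%, of which 51 higher and 1133 lower in KO), as did 11.3% of the placed genes and 0 of the 72 members. An unadjusted p under 0.05 was found for 7 members, 25.7% of all rows and 28.0% of the placed genes. All KO values then lay above all WT values for 5 members (11.9% of all rows, 12.2% of the placed genes) and below for 14 (32.3% and 33.9%).

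Among the members with roles outside transcription, Zfp36 had the lowest limma p of all 72 in the 6 libraries. It lies at chr7:28376784-28380253 on the minus strand, and held 85.1, 77.7 and 96.3 FPKM in KO mice against 56.5, 53.4 and 61.2 FPKM in WT mice. All KO values lay above all WT values, which was so for 1 of 72 members, for 5.9% of all rows tested and for 5.77% of the placed genes. The means were 86.4 ± 9.39 FPKM (KO) and 57.0 ± 3.97 FPKM (WT) with SD over 3 mice, a ratio of 1.52. In limma the log2 fold change was 0.59 ± 0.16 (standard error), with an adjusted p of 0.393, and it was 0.59 ± 0.26 in the 4 libraries that the placing did not rank. An exact permutation test, two-sided, reached p = 0.1, below which 3 libraries against 3 cannot go. Leaving out K82S gave an adjusted p of 0.0507 in limma, and it lay between 0.0507 and 0.948 over all alternatives. In the same libraries 8 placed T cell markers summed to between 161 and 234 FPKM in KO and to between 76.8 and 119 FPKM in WT. Of these markers 7 were higher in all KO than in all WT libraries. None of the 8 markers passed the threshold (1 did without K82S, where 9.28% of all rows passed). Their part in the values of Zfp36 was not tested, and in these bulk samples more cells of a type and more RNA per cell cannot be told apart.

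Of 10 such factors listed by hand 8 were members, 0 passed in either direction, and 4 had a log2 fold change above 0 and 4 below. Zfp593, which takes part in the making of the large ribosomal subunit, held 1.62, 2.75 and 1.32 FPKM in KO mice against 2.35, 2.90 and 3.43 FPKM in WT mice. K82S lay within the WT values and the other KO libraries below them. Its log2 fold change of -0.45 (standard error 0.22) had an adjusted p of 0.411 from limma, and 0.0708 without K82S. Zfp622, another factor of the large ribosomal subunit, reached 10.3 FPKM in K82S and 10.7 FPKM in W89S, beside 6.54 to 7.70 FPKM in the other libraries. These were the high libraries of each genotype, and the log2 fold change was 0.02 (standard error 0.22). Zfp207, whose product loads the checkpoint protein Bub3 onto kinetochores, held 8.95 ± 0.716 FPKM (KO) and 9.95 ± 1.93 FPKM (WT) with SD over 3 mice. Zfp91, a zinc finger protein with ubiquitin ligase activity, held 7.08 ± 1.01 and 7.30 ± 0.352 FPKM. Zfp106, an RNA-binding protein needed by motor neurons, held 7.77 ± 0.929 and 6.31 ± 1.86 FPKM, with its lowest value, 4.24 FPKM, in W90S. Zfp830 held 5.82 ± 0.558 and 6.40 ± 0.657 FPKM. Each of these 4 overlapped between the genotypes.

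In 10 of the 72 members all KO values lay below all WT values, where 11.3% of all rows tested and 12.5% of the placed genes did, so this share was near the background. These were Zfp771, Zfp35, Zfp664, Zfp692, Zfp330, Zfp213, Zfp944, Zfp790, Zfp637 and Zfp422. With each library scaled to the same sum 2 members lay so and 14 lay the other way, and with the median ratio 4 and 7. No share over all rows was taken under these scalings, so these counts cannot be set against a background.

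Zfp692, a C2H2 factor also known as AREBP, at chr11:58307069-58314627 on the plus strand, held 2.87, 2.48 and 1.78 FPKM in KO mice against 3.74, 3.24 and 3.37 FPKM in WT mice. The genotypes did not overlap, and K86S was the lowest. Its log2 fold change in limma was -0.41 ± 0.16 (standard error), at an adjusted p of 0.393 and an exact permutation p of 0.1. Zfp771, with 8 C2H2 fingers, at chr7:127244274-127254803 on the plus strand, held 4.10, 4.12 and 3.34 FPKM in KO mice and 5.30, 5.40 and 4.49 FPKM in WT mice. Its genotypes did not overlap, and the log2 fold change was -0.32 (standard error 0.13). Zfp422, with 6 fingers, at chr6:116624016-116628999 on the minus strand, held 1.42, 1.98 and 1.46 FPKM against 2.11, 2.28 and 2.68 FPKM, with a log2 fold change of -0.36 (standard error 0.15). Zfp330, a nucleolar protein in which no C2H2 finger was found, held 2.07 ± 0.504 FPKM (KO) and 2.92 ± 0.102 FPKM (WT) with SD over 3 mice, with K82S nearest to the WT values.

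Further members among the 12 lowest p-values were lower in the KO mean, apart from Zfp710 and Zfp703. Zfp523, whose human counterpart is the Zfp143 relative ZNF76, held 0.681, 1.44 and 0.881 FPKM in KO mice against 2.27, 1.69 and 1.28 FPKM in WT mice. K82S lay above W90S, so the genotypes overlapped. Zfp637 held 0.799 FPKM in K79S but 2.05 FPKM in K82S and 2.003 FPKM in K86S, against 2.17 to 3.26 FPKM in WT mice. Its log2 fold change was -0.48, and -0.23 without K79S. Zfp213 held 2.25 ± 0.315 FPKM (KO) and 3.01 ± 0.440 FPKM (WT), and Zfp790 held 1.57 ± 0.0696 and 2.12 ± 0.382 FPKM (SD, n = 3), both genes with a KRAB domain. Zfp710, with 11 fingers, held 10.1 ± 1.41 FPKM (KO) and 7.82 ± 0.948 FPKM (WT), where K86S lay below W83S.

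Of 17 Zfp transcription factors of promoters and differentiation listed by hand 7 were members, 0 passed in either direction, and 6 had a log2 fold change above 0 and 1 below. Zfp703, a corepressor of the NET family known from breast epithelium, held 28.2, 22.4 and 25.5 FPKM in KO mice against 17.0, 26.6 and 14.7 FPKM in WT mice. W89S lay among the KO values while the other WT libraries lay below them, and the log2 fold change was 0.41 (standard error 0.24), 0.64 without W89S and 0.24 without W90S. Zfp503, the other NET family member, held 1.52, 1.63 and 1.19 FPKM in KO mice and 3.76, 2.34 and 1.07 FPKM in WT mice. It was highest in W83S, the library with the gastric markers, and lowest in W90S, and its log2 fold change of -0.39 (standard error 0.30) was -0.11 without W83S and -0.71 without W90S. The part of the gastric RNA in this value was not tested.

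The remaining factors of that list overlapped between the genotypes. Zfp148 (ZBP-89), which binds GC-rich promoters, held 3.01 ± 0.289 FPKM (KO) and 2.62 ± 0.291 FPKM (WT) with SD over 3 mice. Zfp143, an activator at the starts of many genes, held 3.61 ± 0.366 and 3.57 ± 0.757 FPKM, and Zfp217, a partner of the CoREST corepressor, held 4.27 ± 0.631 and 4.15 ± 1.02 FPKM. Zfp335, needed for neural progenitors and T cells, held 5.06 ± 1.29 and 4.43 ± 0.118 FPKM, with K79S the highest at 6.39 FPKM. Zfp384, a nuclear matrix factor that is rearranged in human leukaemias, held 7.40 ± 1.32 and 5.98 ± 0.70 FPKM, and its log2 fold change was 0.26 (standard error 0.16). It was 0.14 without K79S, and 0.057 in the 4 libraries that the placing did not rank.

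Of the 7 listed KRAB factors of imprinting and retroelement silencing, Zfp445 was the only member. Zfp445, which keeps imprinted regions methylated together with Zfp57, lies at chr9:122844529-122866006 on the minus strand. It held 5.57, 0.884 and 4.99 FPKM in KO mice and 5.08, 3.71 and 4.70 FPKM in WT mice, so that K82S lay far below the 5 others. This was the widest range of any member, with the highest value 6.31 times the lowest. The log2 fold change of -0.38 (standard error 0.47) turned to 0.20 without K82S. In K82S the levels of Zfp212, Zfp622, Zfp36 and Zfp946 lay between 0.33 and 0.44 above the median of the other 5 libraries on the log2(FPKM + 1) scale, and Zfp652 lay 0.33 below it. Those 5 libraries include all WT libraries, so this measure mixes the genotypes. For Zfp36 the K82S value was the lowest of the KO mice.

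Zfp579 was singled out after its values were seen. It held 4.83 and 4.78 FPKM in K79S and W83S, the pair of libraries that the placing ranked, and 1.98 to 2.71 FPKM in the other 4. Its own K79S value played no part in the placing. Its genotypes overlapped, with a log2 fold change of -0.04 (standard error 0.31).

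**Figure D3:**
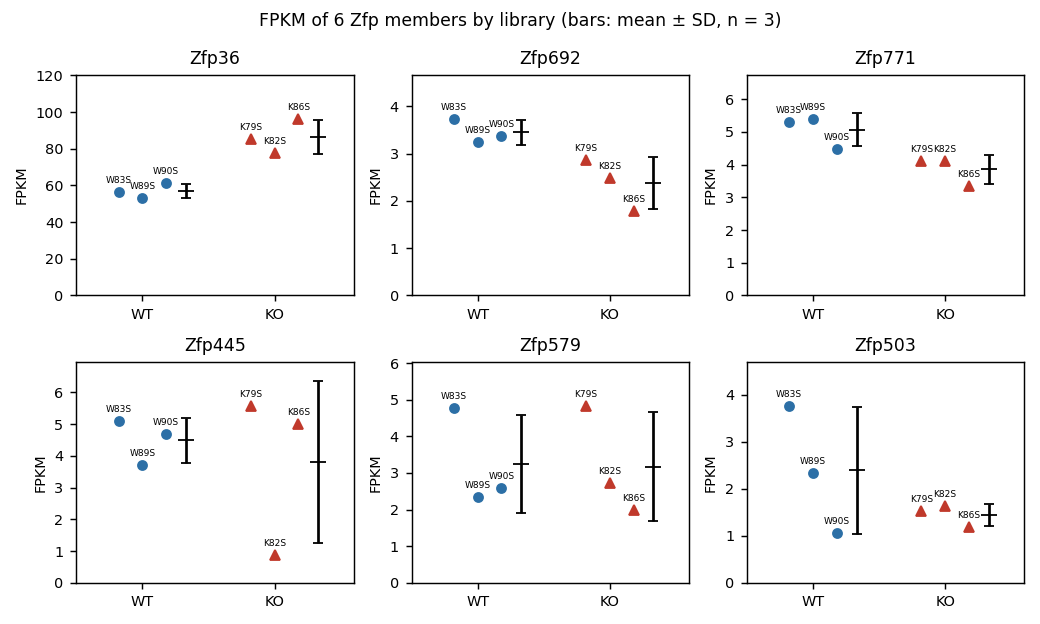
FPKM (vertical axes, from 0) of Zfp36, Zfp692, Zfp771, Zfp445, Zfp579 and Zfp503 in each WT library (circles) and KO library (triangles), with bars for the mean ± SD (n = 3). Zfp36 is higher in all KO libraries, Zfp692 and Zfp771 are lower in all, Zfp445 is low in K82S alone, Zfp579 is high in K79S and W83S, and Zfp503 is highest in W83S.

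In the longest open reading frame of each member, a pattern for the C2H2 finger was found 0 times in 4 members (Zfp36, Zfp703, Zfp503 and Zfp330), 1 to 4 times in 16 and 5 or more times in 52. The median was 8 fingers and the highest number was 21, in Zfp865. A pattern for the KRAB domain was found in 17 members, with 0 of the 17 and 4 of the 55 others at an unadjusted p under 0.05, where 12.5% of all rows had one. Their median log2 fold change was -0.0081, beside -0.0015 for the 55 without it. The 23 members with 10 or more fingers had a median of 0.02, the 29 with 5 to 9 fingers -0.04 and the 20 with 4 or fewer 0.0026.

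The members lay on 17 chromosomes, with 23 of 72 on chromosome 7 and 8 on chromosome 8. In all 23 members lay within 250 kb of the next member, in 9 runs. The longest run, at chr7:127244274-127422068, held Zfp771, Zfp768, Zfp747, Zfp764 and Zfp688, with mean levels from 3.31 to 12.4 FPKM and log2 fold changes from -0.32 to 0.11, of which 3 were above 0. The run at chr7:4915217-5036768 held Zfp628, Zfp579, Zfp524 and Zfp865, with mean levels from 2.68 to 11.4 FPKM and log2 fold changes from -0.13 to 0.21. The other 7 runs held 2 members each, with log2 fold changes on both sides of 0 in 5 runs and below 0 for both members in 2. The median log2 fold change was 0.02 for the members on chromosome 7 and -0.04 for the others.

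Transcripts of the proteins with which KRAB factors work were compared as well. Of 16 listed genes of the KRAB corepressor complex 11 were placed and tested, and 0 passed in either direction. A log2 fold change below 0 was found for 10 and above 0 for 1. Their median was -0.31, beside -0.06 over all rows and -0.08 over the placed genes tested. Like the members, these genes could be placed only where W83S, a WT library, held at least 2.02 FPKM, so their counts by direction are a description. In 4 of the 11 all KO values lay below all WT values, where 11.3% of all rows and 12.5% of the placed genes did. Scaled to the same sum this was so for 2, and no share over all rows was taken under that scaling. Trim28, the corepressor that the KRAB domain binds, held 11.1, 11.9 and 10.1 FPKM in KO mice against 12.2, 15.02 and 13.8 FPKM in WT mice. Its log2 fold change was -0.29 ± 0.14 (standard error), with an adjusted p of 0.416 in limma. Setdb1 held 1.81, 1.86 and 1.85 FPKM against 2.46, 2.27 and 2.45 FPKM, for a log2 fold change of -0.26 (standard error 0.12). Uhrf1, which brings the maintenance methyltransferase Dnmt1 to replicated DNA, held 1.10, 3.38 and 1.12 FPKM against 2.56, 4.08 and 4.86 FPKM, so K82S lay above W83S. For both Trim28 and Setdb1 the genotypes did not overlap. Without K82S 2 of the 11 passed, both lower in KO, where 9.28% of all rows and 11.3% of the placed genes passed. Scaled to the same sum, 8 of the 11 stayed below 0 with a median of -0.17, when the median of all rows was 0.08.

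Of 12 listed markers of proliferating crypts 7 were placed, and these 7 were also lower in the KO means. Their summed FPKM was 31.0, 73.6 and 44.5 in KO mice and 70.5, 99.9 and 122 in WT mice. All 7 had a log2 fold change below 0, with a median of -0.62, and none passed. The median over the placed genes tested was -0.08. Placing required at least 2.02 FPKM in W83S, a WT library, so these markers were selected on a WT value and their direction is a description. Without K82S the median was -1.04 and 2 of the 7 passed, both lower in KO, where 9.28% of all rows and 11.3% of the placed genes passed. For all 7 the KO values then lay below the WT values, where 32.3% of all rows and 33.9% of the placed genes did. K82S was the highest KO library for these markers and for Uhrf1. The part of this in the values of the corepressor genes was not tested. Over the Zfp members the median deviation from each gene's own mean was between -0.08 and 0.04 in the 6 libraries on the log2(FPKM + 1) scale.

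**Figure D4:**
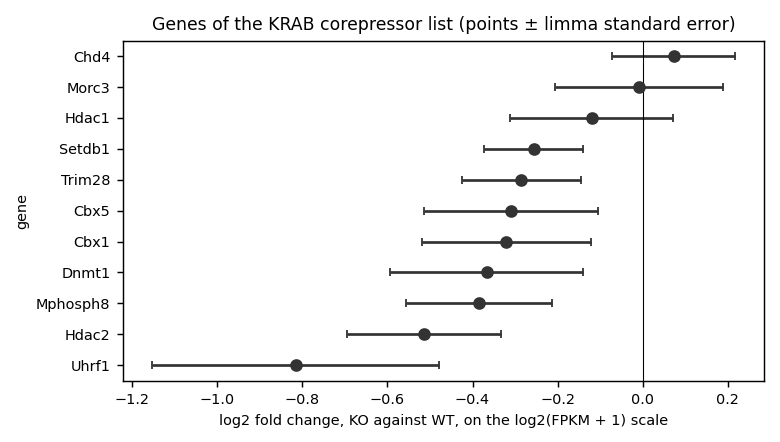
log2 fold change in KO relative to WT on the log2(FPKM + 1) scale (horizontal axis, points ± standard error from limma) for the 11 tested genes of the KRAB corepressor list. Chd4 lies above 0 and the other 10 below, down to -0.82 for Uhrf1, and none passed the threshold.

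At the limit of the placing, Zfp131 and Zfp260 were the last members, with 2.10 FPKM each in W83S. Zfp131 held 2.24 ± 0.215 FPKM (KO) and 2.10 ± 0.136 FPKM (WT), and Zfp260 held 1.92 ± 0.348 and 2.10 ± 0.218 FPKM (SD, n = 3). The next Zfp identifiers in the ranking were those of Zfp809, which silences retroviruses, and Zfp362, at ranks where W83S held about 1.99 and 1.93 FPKM, and their rows were not analysed here.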

How the data were processed

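RNA-seq libraries of 3 KO and 3 WT mice were analysed. The deposited values are FPKM, which the authors obtained with StringTie after trimming (trim-galore) and alignment to mm10 (HISAT2), scaled by transcript length and mapped reads. Versions and strand handling are not given in the sources used here. Columns were matched to mice by the sample titles, and 0 columns were left unmapped. Identifiers were placed by rank. At most 6 decimals were then found for 99.9% of 2862 placed genes with 1 annotated transcript and for 5.91% of 7178 with several, against 31.8% and 32.6% with the identifiers as deposited. Tests covered rows with at least 1 FPKM in at least 2 libraries. The linear model of limma 3.58.1 (R 4.3.3) was applied to log2(FPKM + 1) (trend, no covariate, Benjamini-Hochberg over all rows tested). The fit was tested on simulated data with changes of 2 on the log2 scale and the same spread in all libraries for each row. Every member had a smaller log2 fold change, so the simulation cannot say how well changes of their size are found. Since FPKM holds no counts, no count model was run, and precision rests on the spread between mice. Single values were compared with exact two-sided permutation tests. Promoters are those of RefSeq on GRCm38.p6, and fingers were counted in translated GENCODE M21 transcripts with biopython 1.88.

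The members and gene lists were chosen with earlier results of these data known. Genes named in the text were members past the threshold, the 12 with the lowest limma p, the 8 with the highest mean, members of the hand-written role lists, the 2 last members before the limit and the 6 that deviated most in K82S. Zfp579, members without overlap and genes of the other lists were added. Alternatives were pseudocounts of 0.1 and 0.01, a limit of 0.5 FPKM and no filter, scaled libraries, array weights, leaving out each library, and leaving out K79S with W83S. The 5 placed B and plasma cell markers summed to 113 to 287 FPKM, highest in K82S, the 4 placed stromal markers to 12.9 to 32.9 FPKM and the 3 placed pancreatic acinar markers to 34.6 FPKM in W83S and at most 3.92 FPKM elsewhere.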

Additional observations from a re-analysis of the deposited data

How the results depend on the processing

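No member passed the threshold under any of the 14 alternatives. Over all rows the number that passed was 1, and 2 with array weights, 0 with a pseudocount of 0.1 or 0.01 and 0 without K79S and W83S. It ran from 0 to 1184 when single libraries were left out, with 1184 without K82S. The median log2 fold change of the members was 0.071 scaled by the median ratio and 0.14 scaled to the same sum, and ran from -0.047 (without K79S) to 0.012 with single libraries left out. Members with all KO above all WT libraries, 1 in the 6 libraries, numbered 7 and 14 under these scalings, 6 without K79S and W83S and 3 to 8 without single libraries. Those with all KO below numbered 4 and 2 under the scalings, 20 without K79S and W83S and 11 to 15 without single libraries. Fewer libraries leave fewer values that can overlap. Shares over all rows were taken for the 6 libraries as deposited, without K82S, and without K79S and W83S. The other counts stand without such a share and are no result about the members.

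Of 476 values for 34 named members 439 kept their direction and 37 turned, all of them without passing the threshold. The cause was not tested. Array weights turned Zfp706 to 0.0022, Zfp217 to -0.090 and Zfp946 to -0.020. Scaling by the median ratio turned Zfp706 to 0.088 and Zfp91 to 0.037. Scaling to the same sum turned Zfp706 to 0.18, Zfp524 to 0.039, Zfp207 to 0.041, Zfp91 to 0.12, Zfp830 to 0.043 and Zfp260 to 0.029. Without K79S and W83S the log2 fold change turned to 0.019 for Zfp706, -0.16 for Zfp598, -0.021 for Zfp768, 0.040 for Zfp91 and -0.035 for Zfp335. With single libraries left out it ran from -0.036 to 0.035 for Zfp706, from -0.087 to 0.073 for Zfp598, from -0.035 to 0.17 for Zfp768, from -0.0058 to 0.27 for Zfp747, from -0.21 to 0.014 for Zfp207, from -0.14 to 0.036 for Zfp91, from -0.13 to 0.21 for Zfp622, from -0.70 to 0.20 for Zfp445, from -0.018 to 0.29 for Zfp335, from -0.12 to 0.12 for Zfp143, from -0.076 to 0.20 for Zfp217, from -0.062 to 0.10 for Zfp946 and from -0.040 to 0.31 for Zfp652. No paired analysis was possible because, although the mice were taken in matched pairs, the sources used here do not say which KO mouse belongs with which WT mouse. The FPKM values hold no depth, so low members cannot be given a counting error.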

Other observations

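Other families with zinc fingers, placed by the same ranks, were also compared. Of 13 Klf and Sp genes, which read GC boxes and include factors of epithelial differentiation, 12 had a log2 fold change above 0, with a median of 0.24 on the log2(FPKM + 1) scale, beside 42.3% of all rows above 0. In limma 0 passed the threshold, and 2 had an unadjusted p under 0.05, near the 12.5% of all rows with one. Their number above 0 was 10 to 12 and their median 0.19 to 0.40 over all alternatives. Of 13 Zbtb genes, which join the fingers to a BTB domain, 10 were above 0 with a median of 0.16 (0.071 to 0.31 over all alternatives), 0 passed and 1 had an unadjusted p under 0.05, where 12.5% of all rows did. Of 9 Zscan and Zkscan genes, which carry a SCAN domain, 4 were above 0 with a median of -0.08, but 8 were with a median of 0.071 when scaled to the same sum, and 0 passed in limma with 0 at an unadjusted p under 0.05. Differences between these families and the Zfp members were not tested.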
